A study of Mus musculus with 15 samples.

Results

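The Sult2a sulfotransferase family was followed over 15 liver tumors of mice on 1-colour Agilent arrays. Its members were found by name, as every probe that is not a control and whose gene name on the array starts with Sult2a, which gave 8 probes of 6 genes among 55681 probes and 22594 named genes. The genes were Sult2a1, Sult2a2, Sult2a3, Sult2a4, Sult2a6 with 3 probes, and Sult2a7. The family was selected on the measured difference of Sult2a4 and Sult2a6 between HCC of p53LKO and of p53f/f mice in these same arrays, so the differences of its members are given as a description with no test.

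SULT2A enzymes are cytosolic sulfotransferases. They move a sulfate group from the donor PAPS onto hydroxysteroids such as dehydroepiandrosterone and onto bile acids, which makes these molecules more soluble in water and easier to excrete. In the mouse the genes form a cluster of close relatives, are active mainly in hepatocytes, and are known to be expressed more in female than in male adult liver. Nuclear receptors that sense bile acids, vitamin D and foreign compounds are known to bind a site in a promoter of this family that is made of facing half-sites with no spacer.

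The 15 tumors form 3 groups of 5. The p53f/f HCC were hepatocellular carcinomas of mice with floxed Trp53 alleles, in which p53 was intact. The p53LKO HCC and the p53LKO ICC, the usual abbreviation of intrahepatic cholangiocarcinoma, came from mice with a liver-specific deletion of Trp53, and the Cre line is not given in the sources used here. The study describes the mice of the HCC comparison as male. It reports that tumors formed significantly later in p53f/f than in p53LKO mice, and the age at which each tumor was taken is not given here. Age therefore cannot be told apart from genotype in the HCC comparison. All mice had a C57/BL6J background and all had received CCl4, a hepatotoxin, from a young age at 0.5 µl/g every 3 days over 16 weeks according to the labels (the study's methods word the interval as injections per week), so tumors of every group carry that injury and no untreated or normal liver was compared. The p53f/f HCC came from 4 mice, with 2 tumors of mouse 3717, while the p53LKO HCC and the p53LKO ICC came from 5 mice each and 4 mice gave a tumor to both. RNA was of whole tumor tissue, so that fewer cells of a type and less RNA per cell cannot be told apart.

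The arrays give no read depth, and their number limits the precision. Of the probes of an array, the software called 55.1% to 70.1% well above background in p53f/f tumors, 37.0% to 62.1% in HCC lacking p53 and 42.5% to 47.0% in ICC, and 0 probes were saturated. All p53f/f HCC lay in the upper row of 2 slides and all ICC in the lower row, with 2 p53LKO HCC in the lower row. The share of probes called went with the row. Among p53LKO HCC it was 61.0% to 62.1% in the upper row, and 46.4% and 37.0% in the lower row. Counts of background calls in p53f/f HCC and ICC thus differ in row as well as in group. The Trp53 probe fell by 2.08 on the log2 scale (SE 0.24, adjusted p = 0.000169) from p53f/f to p53LKO HCC. All 9 hepatocyte markers measured were well above background on each of the 15 arrays, and their summed level lay at 11.8 to 12.7 in p53f/f HCC, 11.5 to 11.9 in p53LKO HCC and 9.93 to 11.1 in ICC (log2). The summed level of 10 biliary markers lay at 3.61 to 5.42 in p53f/f HCC, 3.70 to 4.69 in p53LKO HCC and 6.13 to 7.21 in ICC. Of the 8 tested between ICC and p53LKO HCC, 4 rose and 2 fell at adjusted p under 0.05 and over 2-fold (limma). Over all genes 12.4% rose and 15.5% fell. Among these markers Epcam passed the background call in 5 of 5 ICC, 0 of 5 p53LKO HCC and 1 of 5 p53f/f HCC. Because the family differs between the sexes in normal liver, sex-linked genes were read as well. Xist was well above background on 0 of 15 arrays, and of the Y-linked genes Ddx3y and Eif2s3y were on 15 of 15, Uty on 6 and Kdm5d on 0.

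The sequences of the probes are shown because they set what each value can mean. Agilent places probes of 60 bases, and the genes of this family resemble each other so closely that the array annotation lists several genes for most of its probes. The Sult2a1 and Sult2a4 probes each list Sult2a1 and Sult2a4, the Sult2a2 probe lists Sult2a2 and Sult2a5, and the Sult2a3 probe lists Sult2a3 and Sult2a4. The brightest Sult2a6 probe lists Sult2a1, Sult2a5 and Sult2a6, the second lists Sult2a1 and Sult2a6, and only the third Sult2a6 probe and the Sult2a7 probe list 1 gene. Where a probe lists several genes, its signal cannot be divided between them. In the lines that follow, read from the 5′ end, capitals mark bases that differ from the most similar probe at the same place, which is Sult2a4 for Sult2a1, Sult2a1 for Sult2a4 and Sult2a2, and the other bright probe for Sult2a6. Sequences without capitals had no similar partner, and the probes of Sult2a1, Sult2a2 and Sult2a4, which have no open reading frame, are shown as 30 bases that hold many of their differences.
Sult2a1, bases 27 to 56: ctagatgtggtcatagaataaaAcctgttG
Sult2a4, bases 21 to 50: ctagatgtggtcatagaataaaTcctgttC
Sult2a2, bases 5 to 34: ctgttgttCtAtatcttgaatacctGAatA
Sult2a6, brightest probe: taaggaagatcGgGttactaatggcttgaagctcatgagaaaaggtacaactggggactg
Sult2a6, second probe: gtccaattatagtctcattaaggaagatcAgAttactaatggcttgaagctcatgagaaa
Sult2a3: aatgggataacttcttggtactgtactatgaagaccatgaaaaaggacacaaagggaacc
Sult2a7: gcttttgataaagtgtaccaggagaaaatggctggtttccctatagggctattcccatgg

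The Sult2a1 and Sult2a4 probes overlapped over 54 bases with 3 mismatches, and those of Sult2a1 and Sult2a2 over 59 bases with 5 mismatches. The 2 brighter Sult2a6 probes overlapped over 42 bases with 2 mismatches and shared a run of 28 bases. The Sult2a7 probe was at most 40.7% identical to any other probe of the family in an alignment without gaps. On mm9, the build of the array files, the probes lie on chromosome 7. The Sult2a2 probe lies on the plus strand at chr7:14256089-14256148. The Sult2a1 probe lies on the minus strand at chr7:14381602-14381661 and the Sult2a4 probe at chr7:14495026-14495085. The second Sult2a6 probe lies at chr7:14811213-14811272, the third at chr7:14835693-14835752 and the Sult2a7 probe at chr7:15050514-15050573, all on the minus strand. The Sult2a3 probe and the brightest Sult2a6 probe are listed as unmapped. In RefSeq (GRCm38.p6) the family follows the order Sult2a5, Sult2a2, Sult2a1, Sult2a4, Sult2a3, Sult2a6, Sult2a8, Sult2a7 along chromosome 7.

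Levels are log2 of the processed signal relative to the 75th percentile of the array, so 0 is the signal of that percentile and negative values lie below it. For Sult2a4, which belongs to the hydroxysteroid sulfotransferases, the 5 p53f/f HCC measured -5.58, -4.82, -4.68, -4.62 and -1.20. The p53LKO HCC measured -0.08, 1.92, 2.98, 3.33 and 3.85, and the p53LKO ICC 0.55, 1.88, 2.35, 2.45 and 4.46. Every p53LKO tumor lay above every p53f/f HCC, and the highest p53f/f value, of mouse 3715, stood 3.42 above the next. The mean was -4.18 ± 1.71 (SD, n = 5) in p53f/f HCC, 2.40 ± 1.56 (SD, n = 5) in p53LKO HCC and 2.34 ± 1.41 (SD, n = 5) in ICC. The difference of p53LKO from p53f/f HCC was 6.58 (SE 0.89), but only 2 of 5 p53f/f tumors passed the background call for this probe. It was 4.19 with normexp background correction, which adds an offset to dim signals, 7.33 without the p53f/f HCC of mouse 3715 and 7.20 without the p53LKO HCC of mouse 3975.

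The brightest Sult2a6 probe showed the same order of groups. The p53f/f HCC measured -4.93, -3.89, -3.78, -1.69 and -1.53, and 4 of the 5 were well above background. The p53LKO HCC measured 1.46, 2.83, 3.18, 3.51 and 3.59, with a mean of 2.92 ± 0.86 (SD, n = 5), and the ICC 0.47, 2.35, 2.70, 3.04 and 4.32, with a mean of 2.58 ± 1.39 (SD, n = 5). No p53LKO tumor overlapped a p53f/f HCC, and the difference between the HCC groups was 6.08 (SE 0.67), or 4.48 with normexp correction. Within p53f/f HCC the values fell apart into the tumors of mice 3681 and 3715, at -1.69 and -1.53, and those of mice 3716 and 3717, at -4.93 to -3.78.

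The second Sult2a6 probe differed by 7.04 (SE 0.98) between the HCC groups, from -4.99 ± 2.34 (SD, n = 5) to 2.06 ± 0.99 (SD, n = 5), and 2 of 5 p53f/f tumors passed the background call. The difference was 4.03 with normexp correction, and leaving out mouse 3715 gave 7.75. The 2 that passed were again the tumors of mice 3681 and 3715, at -2.75 and -2.16, while the other p53f/f values were -7.19, -6.50 and -6.33. The third Sult2a6 probe, which lists no other gene, passed the background call in 4 of 5 ICC, 3 of 5 p53LKO HCC and 0 of 5 p53f/f HCC. It was at least 4.38-fold higher in p53LKO than in p53f/f HCC, where the p53f/f side is set at the array's lowest signal among probes well above background or at the probe's own signal if that is higher. Measured means were -5.56 and -2.24, and with normexp correction the fitted log2 difference was 1.04. It was 3.31 as measured and 3.99 when the p53LKO HCC of mouse 3975 was left out. The groups overlapped, since the p53LKO HCC of mouse 3975 lay at -4.94 and the p53f/f HCC of mouse 3715 at -4.27.

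The Sult2a3 probe passed the background call in all 10 p53LKO tumors and in 0 of 5 p53f/f HCC. Its p53f/f values were -7.02 to -5.04, against -1.77, -0.55, -0.51, -0.03 and -0.01 in p53LKO HCC and -2.27, -1.20, -0.67, 0.04 and 1.28 in ICC. All p53LKO tumors lay above all p53f/f HCC, and the level was at least 14.0-fold higher in p53LKO HCC, with measured means of -6.30 and -0.57. This floor depends on the background correction, since the fitted difference was 1.92 on the log2 scale with normexp correction. The Sult2a1 probe was well above background on all 15 arrays. It measured -2.41, -2.38, -1.91, -1.61 and 0.77 in the p53f/f tumors, 1.24, 3.26, 4.22, 4.50 and 5.33 in p53LKO HCC, and 1.90, 3.14, 3.43, 3.78 and 5.53 in ICC. The difference was 5.22 (SE 0.79), or 37.2-fold. It was 4.44 with normexp correction and 5.83 without the p53LKO HCC of mouse 3975. The lowest p53LKO HCC, of mouse 3975, lay 0.47 above the highest p53f/f HCC, of mouse 3715.

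Sult2a2 was well above background on all 15 arrays as well. The p53LKO HCC averaged 4.19 ± 1.50 (SD, n = 5) against 0.41 ± 1.29 (SD, n = 5) for the p53f/f tumors, a difference of 3.78 (SE 0.76). The groups overlapped, because the p53f/f HCC of mouse 3715, at 2.18, lay above the p53LKO HCC of mouse 3975, at 1.93. Sult2a7 stood apart from the other probes. Its mean was -2.59 ± 1.69 (SD, n = 5) in p53f/f HCC, -2.83 ± 1.11 (SD, n = 5) in p53LKO HCC and -3.91 ± 1.49 (SD, n = 5) in ICC, its groups overlapped, and the difference between the HCC groups was -0.24 (SE 0.78). It was well above background on 4, 3 and 1 of 5 tumors of the 3 groups.

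**Figure D1:**
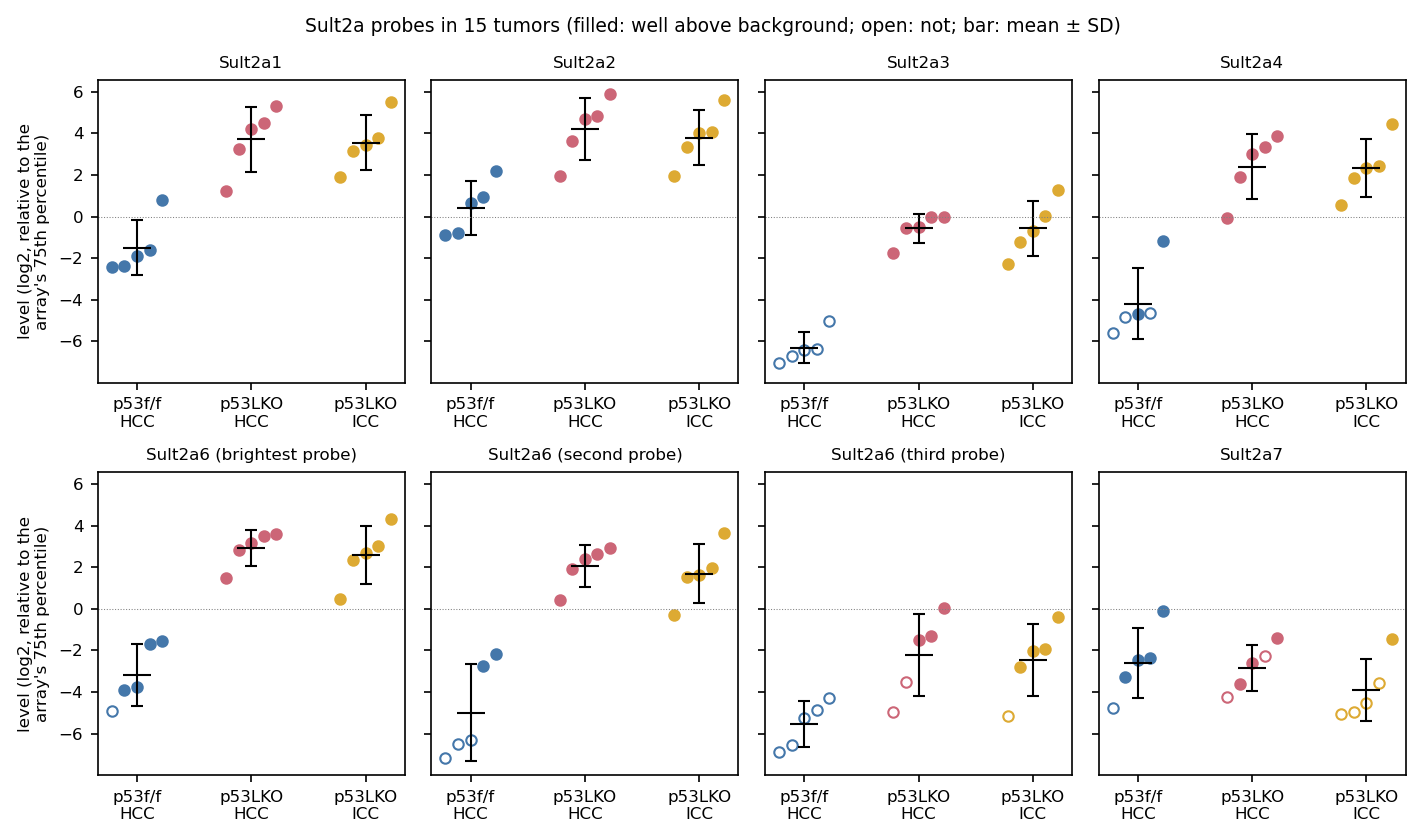
Level of each of the 8 Sult2a probes (log2 relative to the 75th percentile of the array) in the 5 tumors of each group. Filled points were well above background, open points were not, and bars give mean ± SD. For Sult2a1, Sult2a3, Sult2a4 and the brightest and second Sult2a6 probes every p53LKO tumor lies above every p53f/f HCC, while the Sult2a7 groups overlap.

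Of the 8 probes, 5 had all p53LKO HCC above all p53f/f HCC, a pattern that 6.14% of the 36082 probes tested showed. The family was chosen on this contrast, so its share is printed beside the background and nothing is read from it. Ordered by the difference among all probes tested, from the highest, the second Sult2a6 probe ranked 2, Sult2a4 3, the brightest Sult2a6 probe 5, Sult2a3 7, Sult2a1 11, Sult2a2 40, the third Sult2a6 probe 56 and Sult2a7 20278. For Sult2a3, Sult2a4 and the second and the third Sult2a6 probe, at most 2 of 5 p53f/f HCC were well above background, so their places rest on dim signals and are not settled. Sult2a8, which the array calls 2810007J24Rik and the rule therefore does not take in, was well above background on all 15 arrays with means of 2.19, 1.59 and 1.47 in p53f/f HCC, p53LKO HCC and ICC. Its difference between the HCC groups was -0.60 (SE 0.36, adjusted p = 0.225).

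**Figure D2:**
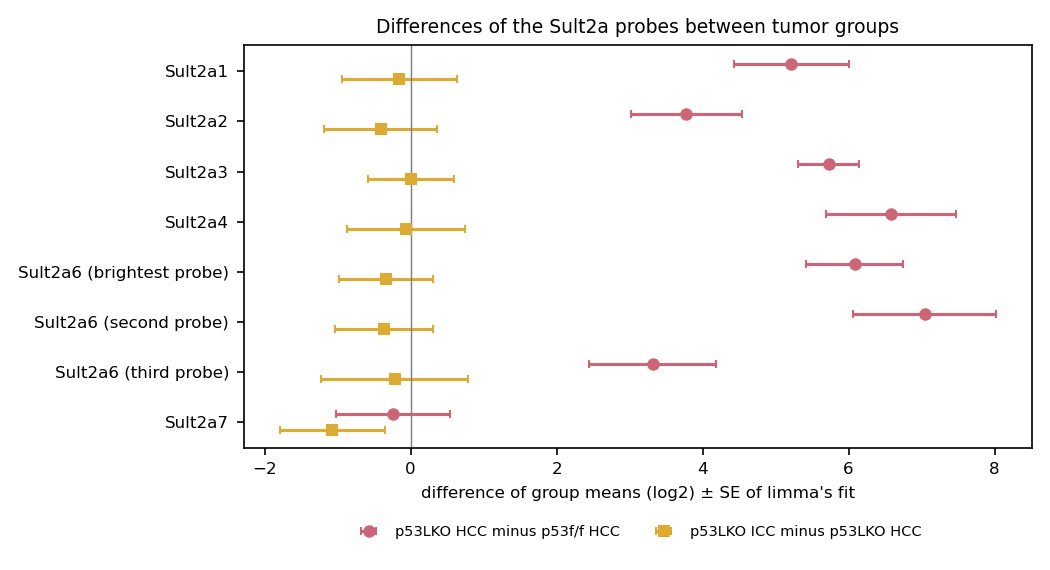
Difference of group means (log2) for each Sult2a probe with the standard error of limma's fit, for p53LKO HCC minus p53f/f HCC (circles) and p53LKO ICC minus p53LKO HCC (squares). The first difference lies between 3.31 and 7.04 for the probes other than Sult2a7, and the second between -1.07 and 0.01 for all 8.

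Slide and row gave the same direction for the main probes. Among the upper-row arrays alone, 3 p53LKO HCC and 5 p53f/f HCC, Sult2a4 differed by 6.55 and the brightest Sult2a6 probe by 5.88. On the first slide, with 2 p53LKO and 4 p53f/f HCC, the differences were 6.51 and 6.20, and on the second, with 3 and 1, 7.05 and 6.61. Sult2a7 differed by 0.05 within the upper row and by -0.84 and 0.71 on the slides, so its direction was not settled.

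The ICC of p53LKO mice carried the family at levels that overlapped those of p53LKO HCC. ICC minus HCC was -0.06 (SE 0.81) for Sult2a4, -0.34 (SE 0.64) for the brightest Sult2a6 probe, -0.15 (SE 0.79) for Sult2a1, -0.41 (SE 0.77) for Sult2a2 and 0.01 (SE 0.59) for Sult2a3. Sult2a7 gave the value farthest from 0, -1.07 (SE 0.72), but it was -0.03 with normexp correction. Only 1 of 5 ICC passed the background call for the Sult2a7 probe. All 8 probes overlapped between ICC and HCC, whereas 28.6% of the 32669 probes tested had no overlap in either direction. These comparisons share the p53LKO HCC arrays on which the family was chosen and are given as a description. Against p53f/f HCC the mean of ICC was higher by 6.52 for Sult2a4, 5.74 for the brightest Sult2a6 probe and 5.06 for Sult2a1, and lower for Sult2a7, at -3.91 against -2.59.

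The 4 mice that gave both tumors allow the ICC to be set beside the HCC of the same liver. For Sult2a4, mouse 3731 measured 3.33 in HCC and 2.45 in ICC, mouse 3733 3.85 and 0.55, mouse 3976 1.92 and 1.88, and mouse 5283 2.98 and 2.35. The ICC was lower in 4 of 4 mice, by 0.04 to 3.30, and with mouse as a block the difference was -1.21 in place of -0.06. The block leaves the HCC of mouse 3975, the lowest of its group, and the ICC of mouse 3977, the highest, without a partner, so the blocked value rests on the 4 pairs alone. The brightest Sult2a6 probe was also lower in ICC in 4 of 4 mice, with differences of -3.04 to -0.13 and a blocked value of -1.14. Sult2a1, Sult2a2 and the second Sult2a6 probe were lower in 4 of 4 mice and Sult2a3, the third Sult2a6 probe and Sult2a7 in 3 of 4. For the 5 probes lower in every pair, mouse 3733 gave the widest gap.

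**Figure D3:**
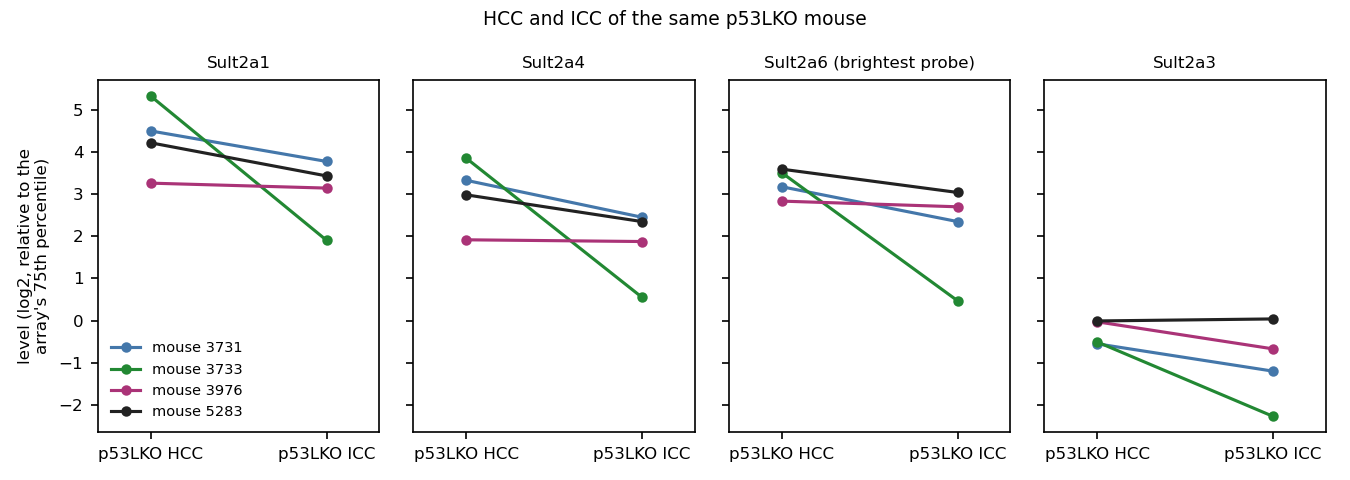
Level (log2 relative to the 75th percentile of the array) in HCC and ICC of the 4 p53LKO mice that gave both, for 4 of the probes, with 1 line per mouse. The lines of Sult2a1, Sult2a4 and the brightest Sult2a6 probe fall in all 4 mice, most in mouse 3733, and the Sult2a3 line of mouse 5283 is level, with -0.01 and 0.04.

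The highest and lowest tumors were often the same on different probes. Among p53LKO HCC, mouse 3975 was lowest for Sult2a1, Sult2a2, Sult2a3, Sult2a4 and all 3 Sult2a6 probes. Among ICC, mouse 3977 was highest and mouse 3733 lowest for the same probes. Over the 10 p53LKO arrays with group means removed, the 21 pairs of probes without Sult2a7 correlated at 0.72 to 1.00 and the 7 pairs with Sult2a7 at 0.58 to 0.73 (Pearson, points share the array and its scaling, and probes that list the same gene may share signal). The ICC of mouse 3733 also had the lowest summed hepatocyte level of the ICC, 9.93, and that of mouse 3977 the highest, 11.1. The part of hepatocyte content in the Sult2a levels of ICC was not tested. The HCC of mouse 3975 had a summed hepatocyte level of 11.8, inside the 11.5 to 11.9 of its group. Among p53f/f HCC the tumor of mouse 3715, highest for every Sult2a probe, had the lowest hepatocyte sum of its group, 11.8, and its highest macrophage and leukocyte sum, 7.81.

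The promoters are shown because most members were higher in the same tumors. RefSeq promoter windows, of 250 bases before to 50 after the gene start, matched Sult2a3, Sult2a4, Sult2a5, Sult2a6 and Sult2a8, and none matched Sult2a1, Sult2a2 or Sult2a7. The stretches printed are 160 bases from before the start, and capitals mark TCATGA (the centre of facing nuclear receptor half-sites with no spacer, the same on both strands) and TGAACT (a half-site that can share 3 bases with it), searched on both strands. The letters were chosen with these promoters in view.
Sult2a4, GRCm38.p6, chr7:13989674-13989833, minus strand: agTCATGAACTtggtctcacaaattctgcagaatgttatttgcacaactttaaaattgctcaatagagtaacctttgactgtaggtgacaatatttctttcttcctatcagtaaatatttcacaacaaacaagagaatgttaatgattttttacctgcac
Sult2a6, GRCm38.p6, chr7:14254921-14255080, minus strand: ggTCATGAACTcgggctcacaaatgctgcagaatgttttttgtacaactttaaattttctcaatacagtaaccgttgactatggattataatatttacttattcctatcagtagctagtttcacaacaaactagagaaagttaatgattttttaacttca
Sult2a5, GRCm38.p6, chr7:13623801-13623960, plus strand: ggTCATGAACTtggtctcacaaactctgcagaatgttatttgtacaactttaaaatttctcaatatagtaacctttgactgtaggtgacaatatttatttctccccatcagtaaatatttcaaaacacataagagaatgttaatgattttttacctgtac
Sult2a3, GRCm38.p6, chr7:14123078-14123237, minus strand: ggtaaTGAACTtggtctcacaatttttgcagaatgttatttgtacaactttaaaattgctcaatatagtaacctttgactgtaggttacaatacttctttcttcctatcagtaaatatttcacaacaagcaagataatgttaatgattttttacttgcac

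The 4 stretches were 82.0% to 93.1% identical in pairwise alignments, and they begin 245 bases before the start in Sult2a4, 210 in Sult2a6, 166 in Sult2a5 and 189 in Sult2a3. TCATGA was present in the windows of Sult2a4, Sult2a5 and Sult2a6 and in 5.45% of the 32851 promoter windows of RefSeq. TGAACT was present in all 4 and in 14.0% of all windows. The windows with both motifs were 339, or 1.03%, and include those of Sult2a4, Sult2a5 and Sult2a6. Of the Sult2a8 windows, 0 held TCATGA and 1 held TGAACT, at 2 places. These matches describe letters and not binding.

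The neighbours of the family in the genome were read for comparison. Of the 12 nearest protein-coding genes with a probe, 6 on each side of the cluster in RefSeq, 5 were tested between the HCC groups, and 0 rose and 1 fell, where 5.41% of 16858 named genes rose and 8.93% fell. The one that fell was Cabp5, a calcium-binding protein of the retina, by 2.77 (SE 0.28, adjusted p = 0.000109). The DNA ligase Lig1 differed by 0.66 (SE 0.15, adjusted p = 0.00856) and Obox1 by -0.84 (SE 0.24, adjusted p = 0.0225), both below the 2-fold threshold.

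Other sulfotransferases and the supply of the sulfate donor were compared between the HCC groups. Of the 20 genes listed, 16 were tested, and 2 rose and 0 fell at adjusted p under 0.05 and over 2-fold (limma), where 5.41% of all genes rose and 8.93% fell. Sult1c2, a cytosolic sulfotransferase, rose by 2.36 (SE 0.52, adjusted p = 0.00630), and Sult2b1, which acts on cholesterol and related sterols, by 1.54 (SE 0.29, adjusted p = 0.00252). Papss2, which makes PAPS in liver, differed by 0.79 (SE 0.27, adjusted p = 0.0453), under 2-fold, and Sult1a1, the main phenol sulfotransferase, by -0.07 (adjusted p = 0.905). The median of the 16 genes was 0.34 against 0.10 for all genes tested.

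In ICC against p53LKO HCC, where the Sult2a groups overlapped, 6 of the 16 other sulfotransferase and donor genes fell and 1 rose. Over all genes, 15.5% of 16152 genes fell and 12.4% rose, and the median was -0.71 against -0.19 for all genes. Sult4a1 was at least 12.5-fold lower in ICC (adjusted p = 0.000340), where it passed the background call in 0 of 5 tumors, with measured means of 0.95 in HCC and -2.90 in ICC. This bound rests on the background call, and all ICC lay in the lower row, where fewer probes passed it. Sult1b1 fell by 3.46 (SE 0.59), Sult1a1 by 2.33 (SE 0.52) and Sult1d1 by 2.01 (SE 0.66). The estrogen sulfotransferase Sult1e1 rose by 2.36 (SE 0.84, adjusted p = 0.0409), a call that was lost with mouse as a block. The sulfate carrier Slc26a1 fell by 1.91 and Bpnt1, which breaks down the spent donor, by 1.65.

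Bile acids are substrates of the family, and 21 of 22 listed genes of their synthesis, conjugation and transport were tested. Between the HCC groups 2 rose and 2 fell, where 5.41% of all genes rose and 8.93% fell. Cyp39a1, an oxysterol hydroxylase, rose by 1.61 (SE 0.49, adjusted p = 0.0278) and Slc51b, a subunit of the basolateral bile acid exporter, by 2.21 (SE 0.72, adjusted p = 0.0361). The uptake carriers Slc10a1 and Slco1a1 fell by 1.11 (SE 0.18) and 1.85 (SE 0.36). The median of the list was -0.06, against 0.10 for all genes. In ICC against HCC 10 fell and 0 rose, where 15.5% of all genes fell and 12.4% rose, and the median was -1.23 against -0.19 for all genes. Beside this, 5 of 9 hepatocyte markers fell in ICC, with a median of -1.53, and 5 of 8 stellate cell and fibroblast markers rose, with sums of 8.84 to 9.66 against 6.16 to 7.88 in p53LKO HCC. Their part in the falls of the liver genes of this and the other lists was not tested. Among the bile acid genes that fell were Slc51b by 4.75, the exporter Abcc4 by 4.43 and the bile salt pump Abcb11 by 1.63.

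Of 23 nuclear receptors and liver factors, 3 rose and 0 fell between the HCC groups (5.41% and 8.93% of all genes). Among those that rose was the repressor Bcl6, which is higher in male liver, by 1.50 (SE 0.25, adjusted p = 0.00123). In ICC against HCC 13 fell and 2 rose (15.5% and 12.4% of all genes). The xenobiotic receptor Nr1i2 (PXR) fell by 3.07 (SE 0.42, adjusted p = 0.000355), the bile acid receptor Nr1h4 (FXR) by 1.48 (SE 0.40, adjusted p = 0.0128) and Hnf4a by 2.03. The vitamin D receptor Vdr rose by 3.15 (SE 0.99, adjusted p = 0.0241) and Foxa1 by 1.02. The 4 rises of ICC over HCC in these lists, with Atp6v0d2 of the next list, numbered 0 with mouse as a block.

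Genes that are higher in 1 sex of normal liver are a background for a family that is higher in females. Of 12 tested female-predominant genes, 0 rose and 1 fell between the HCC groups. The list's median was 0.50 against 0.10 for all genes, of which 5.41% rose and 8.93% fell, and Cux2, a female-specific repressor, differed by 2.44 (SE 1.11, adjusted p = 0.114). Of 14 tested male-predominant genes, 0 rose and 4 fell, with a median of -1.79. The major urinary protein gene Mup20 fell by 2.17 (SE 0.50) and the complement gene C6 fell by 1.42 (SE 0.49). Susd4, a complement regulator, fell by 2.56 (SE 0.63) and the glucuronosyltransferase Ugt2b1 fell by 2.53 (SE 0.61). In ICC against HCC 4 female-predominant genes fell and 1 rose of 12, and 5 male-predominant genes fell and 0 rose of 12, where 15.5% of all genes fell and 12.4% rose. The medians were -1.78 and -1.88, against -0.19 for all genes.

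**Figure D4:**
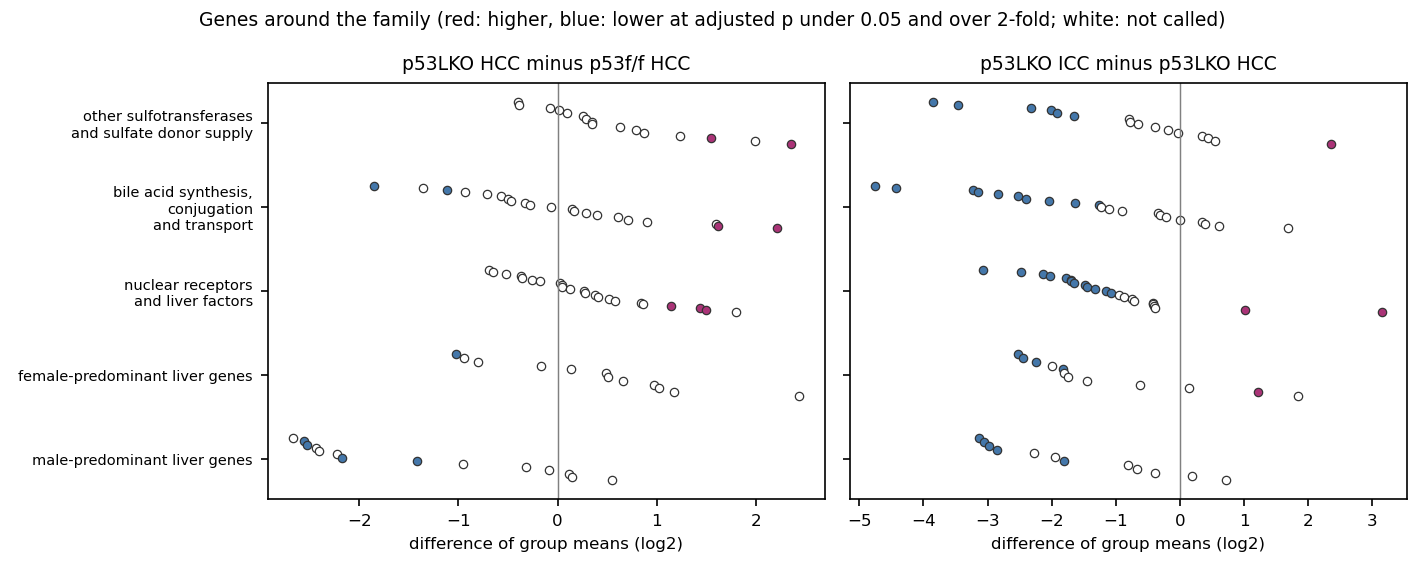
Difference of group means (log2) of each tested gene in 5 lists around the family, for p53LKO HCC minus p53f/f HCC (left) and p53LKO ICC minus p53LKO HCC (right), on axes of different range. Red points rose and blue points fell at adjusted p under 0.05 and over 2-fold. On the left 7 genes rose and 7 fell, on the right 4 rose and 38 fell.

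The genes with a pattern most like that of the family were named by correlation over the 15 arrays with the mean profile of the Sult2a4 and brightest Sult2a6 probes, among 17422 candidates. Smim3 was nearest (Pearson 0.91), with means of 0.46, 2.43 and 2.48 in p53f/f HCC, p53LKO HCC and ICC. It was followed by Csf2rb, Orc6, Sgk3, 2700029M09Rik, Pus7l, Il1r1, Ctdp1, Ndrg1 and Rabl2, at 0.86 to 0.88. With group means removed, the nearest were Cyp4a32 (0.90), Cyp4a10 (0.87), Cyp4a31 (0.87), Gulo (0.86), H2-Q1, Scnn1a, Upp2, Nln, Dera and Cyp2c44, the last at 0.82. Of the 10 genes of each ranking, 0 were in both. The correlations are descriptions over arrays that fall into groups and share their scaling.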

How the data were processed

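RNA of 15 tumors was hybridised to 1-colour arrays, 1 array per tumor, and tumors were grouped by the labels. The authors extracted the signals of the scanned arrays with Agilent Feature Extraction 10.7.3.1, and the deposited files hold a processed intensity per spot, after background subtraction. The authors also deposited processed log2 values, which for the HCC arrays were found to be centred per probe (correlation with rebuilt values at least 1.00), and they were used as an alternative.

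Here log2 processed intensities were averaged over spots and shifted by the 75th percentile of the array. Probes that 3 or more arrays of a group called well above background were fitted with limma 3.58.1 (R 4.3.3), with Benjamini-Hochberg adjustment over all probes kept, and called at adjusted p under 0.05 and over 2-fold. A gene was represented by its brightest probe. The fit was tested on simulated data. Sequences were read with Python 3.11.15, promoters aligned with Biopython 1.88 and figures drawn with matplotlib 3.10.9. Every Sult2a probe, the 10 genes most like the family in each of 2 rankings, and a part of the list genes past both thresholds were named. The other list genes are given by counts, and some are not reported here. Papss2, Sult1a1, Cux2, Sult2a8 and the neighbouring genes were chosen after their values were seen.

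The members and lists were chosen with earlier results of these data known. Tumors were taken as replicates, although mouse 3717 gave 2 of the p53f/f HCC. Pairing of HCC and ICC rests on the animal. Deviations of the 4 same-mouse pairs from the group means correlated at -0.14 to 0.07, against -0.26 to 0.28 for the 21 other pairs.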

Additional observations from a re-analysis of the deposited data

Results flagged for a closer look

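The p53f/f HCC of mouse 3715 lay apart from the other p53f/f HCC on 2 probes. Its Sult2a1 level was 0.77, against -2.41 to -1.61 in the other 4 tumors, and its Sult2a4 level was -1.20, against -5.58 to -4.62. Both gaps passed Dixon's 95% critical value, among 24 sets of 5 tumors, where chance gives about 1 in 20 independent sets. The sets share arrays and these 2 probes list the same genes, so the gaps are a description, and their number is not set against chance.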

How the results depend on the processing

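For Sult2a4 and Sult2a6, p53LKO HCC stayed above p53f/f HCC under each of 20 alternatives, at 4.19 to 7.33 and 4.48 to 6.82 on the log2 scale. The lowest values, 4.19 and 4.48, came from normexp background correction, which adds an offset to dim signals. ICC minus HCC lay at -1.21 to 0.38 and -1.14 to 0.19 under 19 alternatives and changed sign in 7 and 2 of them. Sult2a7 changed sign between the HCC groups in 5 of 19.

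Of the list genes, 7 rose between the HCC groups, but 4 did with quantile normalization, 4 with the methods' t-test and 28 with scaling to 7 spike-in probes, which moved the median of all genes from 0.10 to 0.83. The 7 that fell numbered 4 with quantile normalization, 4 with spike-in scaling and 3 among probes well above background on all 10 arrays. Without 1 tumor both counts were 5 to 8. In ICC against HCC, 4 rose, but 2 with normexp, 2 with all 15 arrays in 1 model, 2 without a filter, 1 with the row as a block, 1 with the methods' t-test and 0 with mouse as a replicate block. Without 1 tumor 0 to 3 rose, with 0 without the HCC of mouse 3975, 1 without the HCC of mouse 3976 or the ICC of mouse 3731 or 3976, and 2 without the HCC of mouse 3731 or 3733 or the ICC of mouse 3977 or 5283. The count that fell was 29 to 42 in all 22 alternatives, 42 with the mouse block. The cause of these changes was not tested.

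Dim signals limit the folds of Sult2a3, Sult2a4 and the second and the third Sult2a6 probe, which 0, 2, 2 and 0 of 5 p53f/f HCC showed well above background.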
